A study of Mus musculus with 24 samples.

Results

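The genes described here are 10 genes of the integrated stress response and the unfolded protein response of the endoplasmic reticulum (ER): Nupr1, Ddit3, Atf4, Trib3, Asns, Hspa5, Xbp1, Herpud1, Dnajb9 and Calr. A probe set of the array was taken when its annotation named a single gene symbol and that symbol was one of these, which gave all 10, of 12393 genes named this way, and 22 of the 22626 probe sets that are not array controls. Mouse lung RNA was measured in 6 groups of 4 arrays. Every group breathed for 4 hours a day on 5 days, either filtered air or diesel exhaust (DE), the lower concentration being 500 ug/m3 (DE 500) and the higher 2000 ug/m3 (DE 2000). At each exposure 1 group had received saline and 1 group 100 ug of ovalbumin (OVA), an egg protein used as an allergen, on 3 days. The groups are named air/saline, DE 500/saline, DE 2000/saline, air/OVA, DE 500/OVA and DE 2000/OVA. The labels used here name no strain, sex or age, and they do not say whether the replicates of a group came from separate animals, so p-values measure the spread between these arrays. The number of arrays limits the precision of each value.

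Cells answer a shortage of amino acids, unfolded protein in the ER and several other stresses by phosphorylating the translation factor eIF2, which lowers protein synthesis in general while the transcription factor ATF4 is made more. ATF4, with its partner CHOP (gene Ddit3), then switches on genes of amino acid supply and of cell survival or death, which is the integrated stress response. The unfolded protein response runs beside it through the sensors IRE1 and ATF6: IRE1 splices the Xbp1 transcript into the form that encodes the active factor, and ATF6 and XBP1 raise the chaperones and the degradation machinery of the ER. In lung, cells with a heavy secretory load, such as alveolar type 2 cells, club cells and plasma cells, are known to depend on this machinery.

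Promoter sequences of the members were searched for the elements through which ATF4, or ATF6 and XBP1, are known to act. The letters of these elements differ, but not every member held one and a member can hold both kinds. All 10 members matched RefSeq promoter windows of build GRCm38.p6, each holding 250 bases before a transcript's start and 50 bases from the start on. Both strands were searched for the letters TGATGNAA, a core of the C/EBP-ATF response element that ATF4 can bind (CARE), for the letters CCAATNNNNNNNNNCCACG, the ER stress response element (ERSE), and for ATTGG and CCACG with any 1 base between them (ERSE-II). No pair of matches overlapped in a member. The CARE letters were in 3.97% of 32851 windows and in those of Nupr1, Trib3, Asns and Herpud1. ERSE was in 39 windows (0.119%), those of Hspa5 and Calr among them, and ERSE-II in 12 (0.0365%), that of Herpud1 among them. The windows of Ddit3, Atf4, Xbp1 and Dnajb9 held none of these letters. Each sequence runs 5′ to 3′ on the strand of its gene, and the capitals mark the fixed letters of a match; a match on the other strand appears as its reverse complement. The Nupr1 sequence is the whole 250 bases before the start (chr7:126625471-126625720, minus strand), with CARE from 110 to 103 bases before it. For the other genes each match is shown with 11 bases on either side: Trib3 at chr2:152344028-152344057, minus strand, which lies after the start, Asns at chr6:7693214-7693243, minus strand, Hspa5 at chr2:34772014-34772054, plus strand, Herpud1 at chr8:94386306-94386398, plus strand with CARE first and ERSE-II after it, and Calr at chr8:84847064-84847104, minus strand.
Nupr1: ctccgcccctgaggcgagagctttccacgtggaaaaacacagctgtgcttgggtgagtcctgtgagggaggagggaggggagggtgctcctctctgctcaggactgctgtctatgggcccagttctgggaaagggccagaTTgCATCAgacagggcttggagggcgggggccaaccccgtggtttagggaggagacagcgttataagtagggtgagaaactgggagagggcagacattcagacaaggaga
Trib3: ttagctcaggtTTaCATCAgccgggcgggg
Asns: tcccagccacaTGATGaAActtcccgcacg
Hspa5: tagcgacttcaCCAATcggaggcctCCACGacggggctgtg
Herpud1: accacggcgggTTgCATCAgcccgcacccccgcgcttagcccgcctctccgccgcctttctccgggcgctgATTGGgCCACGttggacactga
Calr: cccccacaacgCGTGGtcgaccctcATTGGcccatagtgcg

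Any pair of the 24 arrays had a Pearson correlation of log2 signal from 0.88 to 0.96. The surfactant gene Sftpc (signal from 21129 to 41214), the club cell gene Scgb1a1 and the endothelial gene Cdh5 were bright on every array, as the label of lung asks. The arrays differed in how evenly they covered transcripts: the control probe sets at the 3' end of Gapdh and actin against those at the 5' end gave a log2 ratio, averaged over both genes (here the 3'/5' ratio, high where the 5' part is under-represented), of 1.74 ± 0.83 (SD, n = 4) in air/saline, 2.15 ± 2.24 in DE 500/saline and 1.63 ± 0.31 in DE 2000/saline, against 0.08 ± 0.10 in air/OVA, 0.03 ± 0.07 in DE 500/OVA and 0.51 ± 1.01 in DE 2000/OVA. DE 500/saline was split, with 4.38 and 3.77 in replicates 1 and 4 against 0.33 and 0.10 in replicates 2 and 3. DE 2000/OVA replicate 4 (2.02) stood apart from its group. DE 500/saline replicates 1 and 4 and DE 2000/OVA replicate 4 are named the 3 uneven arrays. Air/saline replicate 3 (2.90) and DE 2000/saline replicate 1 (2.04) had higher ratios than DE 2000/OVA replicate 4 and were kept. Without the 3 uneven arrays DE 500/saline holds only its replicates 2 and 3, of low ratio. Calls that changed without the 3 uneven arrays are given with and without them, a choice made after their values were seen. The ratio differed little between the means of air and DE 2000 within the saline arm and a great deal between the arms, so the fit with this ratio as covariate is given beside the ovalbumin results.

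Exhaust was compared with air in each arm and as the average of both arms. Probe sets were tested when their geometric mean signal over the 24 arrays exceeded 138, which left 13575 probe sets and 21 of the 22 of the members. The untested probe set was 1439258_at of Atf4, with a geometric mean signal of 15.3; the other Atf4 probe sets were far brighter. A call is an adjusted p below 0.05 in limma with Benjamini-Hochberg adjustment over all tested probe sets, and values after ± are standard errors (SE) of a log2 difference unless they are said to be standard deviations (SD). Where a gene had several probe sets, the brightest speaks for it and the other tested ones are given beside it.

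Nupr1, a small chromatin-associated stress protein induced through ATF4 and a factor in cell survival under stress, rose at DE 2000, 1.36-fold over air as the average of both arms. It was the only member probe set called for exhaust: 1 of 21 (4.76%) was called in that average, where 0.0884% of all tested probe sets were. In saline, the signals of its probe set 1419665_a_at were 1182, 1015, 1206 and 1028 in air, 1329.7, 938, 1107 and 1119 at DE 500 and 1472, 1588, 1433 and 1431 at DE 2000. With ovalbumin they were 846, 1036, 700.2 and 867 in air, 884, 900.1, 898 and 873 at DE 500 and 1024, 1322, 1162 and 1237 at DE 2000. Every DE 2000/saline array was above every array of the other 5 groups, and in the ovalbumin arm DE 2000 overlapped air by a single pair of values, the lowest of DE 2000/OVA against the highest of air/OVA. The log2 difference between DE 2000 and air was 0.44 ± 0.09 (95% confidence interval 0.27 to 0.62, adjusted p = 0.0368 in limma). In bulk lung, more RNA per cell and more cells that carry the transcript cannot be told apart.

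The rise of Nupr1 was alike in size in both arms, 0.42 ± 0.12 in saline (1.34-fold, adjusted p = 0.24 in limma) and 0.47 ± 0.12 with ovalbumin (1.38-fold, adjusted p = 0.492), and neither arm passed the threshold by itself. The difference between the arms, tested as the interaction of DE 2000 and ovalbumin, was 0.05 ± 0.17 (adjusted p = 0.994). At DE 500 the average difference from air was 0.04 ± 0.09, with a 95% confidence interval from -0.14 to 0.21. DE 2000 exceeded DE 500 by 0.41 ± 0.09 (interval 0.23 to 0.59, adjusted p = 0.087 in limma), which missed the threshold; without the 3 uneven arrays it was 0.46 (adjusted p = 0.00661) and with the 3'/5' covariate in the fit 0.41 (adjusted p = 0.0111). Ordered by mean log2 signal, the groups were air/OVA (9.74 ± 0.23, SD, n = 4), DE 500/OVA (9.80 ± 0.02), air/saline (10.11 ± 0.13), DE 500/saline (10.12 ± 0.21), DE 2000/OVA (10.21 ± 0.16) and DE 2000/saline (10.53 ± 0.07). Neighbours in that order overlapped in their values except DE 500/OVA and air/saline, and DE 2000/OVA and DE 2000/saline.

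**Figure D1:**
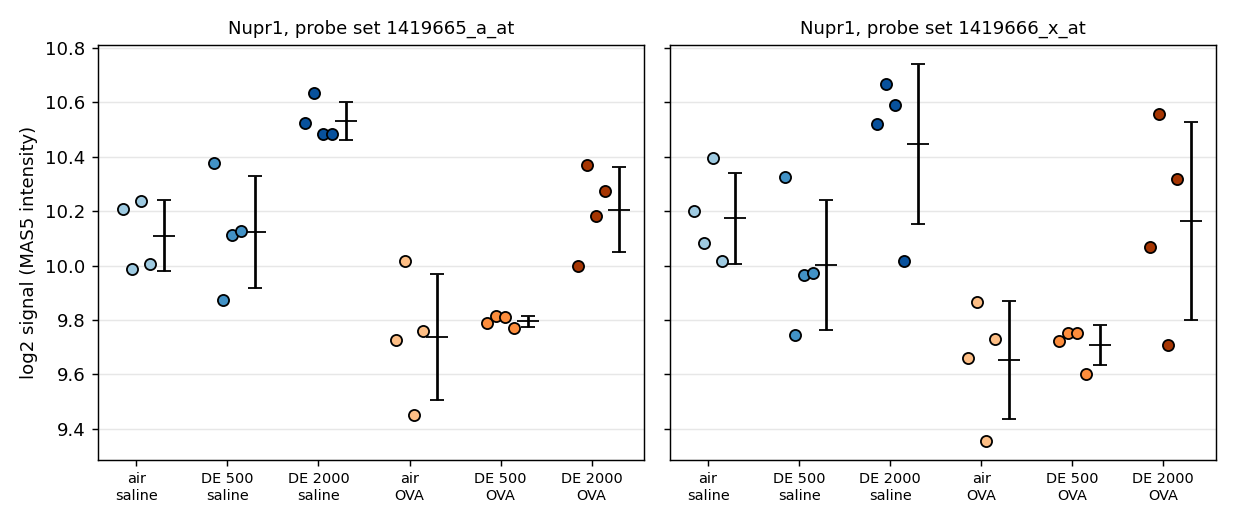
Log2 signal of the Nupr1 probe sets 1419665_a_at (left) and 1419666_x_at (right) on each array, by group; points are arrays, horizontal marks with bars are the mean and SD of 4 arrays. For 1419665_a_at the DE 2000/saline arrays sit above all others, while 1419666_x_at has a wider spread and overlaps between exposures.

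The other Nupr1 probe set, 1419666_x_at, gave 0.39 ± 0.12 for DE 2000 against air (1.31-fold, interval 0.14 to 0.64, adjusted p = 0.414 in limma). Its DE 2000/saline signals were 1469, 1627, 1540.1 and 1036, of which the fourth lay in the range of air/saline (1175, 1085, 1347 and 1035). Its DE 2000/OVA signals were 1075, 1508, 836 and 1278, and the third of them lay among those of air/OVA (809.8, 932, 655 and 849). Both probe sets thus had the same direction, and only the tighter of them was called.

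The call of Nupr1 in the average was close to the threshold. The difference was 0.43 with the 3'/5' covariate in the fit (adjusted p = 0.0127) and 0.43 without the 3 uneven arrays (adjusted p = 0.0418), both called. It was 0.49 with arrays scaled to their medians (adjusted p = 0.151) and 0.44 with only the compared groups in the fit (adjusted p = 0.104), neither called. Leaving out single arrays gave 0.40 to 0.49 and ended the call in 18 of 24 fits; the call held without air/OVA replicate 2, DE 2000/OVA replicate 1, air/saline replicate 3 or DE 500/saline replicate 1, 2 or 3, and was lost without any other array, with an adjusted p up to 0.134 without air/saline replicate 2.

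Markers of cell types were set beside Nupr1. Of 9 tested neutrophil markers, 2 were called higher at DE 2000 as the average of both arms (0.108% of all tested genes called). They were Cd177 (2.14 ± 0.21, adjusted p = 9.51e-06 in limma) and Lcn2 (0.83 ± 0.13, adjusted p = 0.00289), a secreted iron-binding protein that airway epithelium also makes. Of the 9 neutrophil markers 7 were above 0, with a median of 0.34. That median was 0.89 in saline and 0.15 with ovalbumin. Their list of 11 genes on the array summed to 5086 to 7843 in air/saline and 9789 to 15124 in DE 2000/saline, and to 6028 to 7764 in air/OVA and 6555 to 8676 in DE 2000/OVA. None of the 9 alveolar type 2 and 9 club and secretory airway markers was called, with medians of 0.13 and 0.11 and 6 of 9 and 9 of 9 above 0, beside a median of -0.01 over 8315 genes. No marker was called in that average in the lists of alveolar macrophage, plasma and B cell, ciliated, endothelial, fat tissue or cardiac muscle. The part of these cell types in the Nupr1 difference was not tested.

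Over all 24 arrays, after the mean of each arm was removed, the genes most like Nupr1 by Pearson correlation among 8315 were Prom1 (r = 0.84), Pigr, which moves IgA through epithelial cells (0.84), Macroh2a1 (0.82), Rps26 (0.82) and Lgals3, a galectin of macrophages and epithelium (0.82). These values describe likeness over arrays that share exposures, and no test was made of them.

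The partners and targets of ATF4 among the members gave small differences at DE 2000. Ddit3, which encodes CHOP, had signals of 514, 375, 720.3 and 619 in air/saline and 617, 508, 478 and 646 in DE 2000/saline, which overlapped. With ovalbumin they were 409.6, 445, 421 and 407 in air and 451, 529, 337 and 392 at DE 2000, a wider spread around the same level. The average log2 difference from air was 0.02 ± 0.13 at DE 2000, with a 95% confidence interval from -0.24 to 0.29, so a rise in Ddit3 of the size seen in Nupr1 (0.44) lay outside the interval. At DE 500 it was -0.10 ± 0.13.

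Atf4, the central transcription factor, is controlled mainly in translation, so its RNA is an incomplete readout of its activity. Its brightest probe set 1448135_at gave 0.11 ± 0.11 for DE 2000 against air (interval -0.11 to 0.34) and -0.02 ± 0.11 for DE 500. The dimmer Atf4 probe set 1438992_x_at gave 0.22 ± 0.19 and 0.11 ± 0.19. Trib3, a pseudokinase that ATF4 and CHOP induce and that dampens their activity, was dim: its signals ran from 112 to 261 over both probe sets and all arrays. For Trib3 the differences at DE 2000 were 0.09 ± 0.15 (1456225_x_at) and 0.21 ± 0.16 (1426065_a_at). Asns, asparagine synthetase and a direct ATF4 target through the element shown above, gave 0.06 ± 0.12 (1451095_at, interval -0.19 to 0.30) and 0.29 ± 0.16 (1433966_x_at, interval -0.04 to 0.62). Of the 4 members with CARE letters in their windows, Nupr1 was called and Trib3, Asns and Herpud1, given below, were not. The difference between the genes was not tested. The intervals of Trib3 1426065_a_at (-0.12 to 0.54) and Asns 1433966_x_at (-0.04 to 0.62) included the Nupr1 value of 0.44.

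The ER arm of the members gave the following for exhaust. Hspa5 (BiP), the main chaperone of the ER and the standard marker of the unfolded protein response, had signals from 6039 to 8359 over all 24 arrays in its brightest probe set 1416064_a_at and from 740.4 to 1715 in 1427464_s_at. The difference for Hspa5 1416064_a_at was 0.01 ± 0.08 at DE 2000 (interval -0.15 to 0.17) and -0.10 ± 0.08 at DE 500 (interval -0.26 to 0.06), and for 1427464_s_at it was -0.11 ± 0.15 and 0.06 ± 0.15. Calr, the calcium-binding lectin chaperone calreticulin, gave -0.03, -0.03 and 0.06 in its 3 probe sets at DE 2000, each ± 0.10. Dnajb9 (ERdj4), a co-chaperone of BiP and an XBP1 target, gave -0.13 ± 0.12 at DE 2000 and 0.14 ± 0.12 at DE 500.

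Herpud1, a membrane protein of ER-associated degradation whose window holds both ERSE-II and CARE letters, was lower at DE 2000 in both probe sets without passing the threshold. For 1448185_at the signals were 1903, 2089, 1707 and 2356 in air/saline and 1381, 1801, 1796 and 1762 in DE 2000/saline. With ovalbumin they were 2189, 2427, 2115 and 2537 in air and 1653, 2044, 1893 and 1734 at DE 2000. The groups overlapped in saline, and with ovalbumin every DE 2000 array lay below every air array. The average difference was -0.30 ± 0.09 (interval -0.49 to -0.10, unadjusted p = 0.00421, adjusted p = 0.433 in limma), and -0.32 ± 0.20 for Herpud1 probe set 1435626_a_at (-0.20 without the 3 uneven arrays).

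Xbp1, the factor that IRE1 activates by splicing, gave 0.19 ± 0.08 in its brightest probe set 1437223_s_at at DE 2000 (interval 0.03 to 0.35, adjusted p = 0.614 in limma) and 0.14 ± 0.08 at DE 500. The probe set 1420012_at of Xbp1 had signals of 385, 424, 319 and 355 in air/OVA and 461, 560.2, 639 and 567 in DE 2000/OVA, with no overlap, and 409.8, 405, 459 and 464 in air/saline and 384, 508, 488 and 382 in DE 2000/saline, with much overlap. Its difference was 0.59 ± 0.15 with ovalbumin (1.5-fold, adjusted p = 0.422) and 0.01 ± 0.15 in saline. The difference between the arms was 0.58 ± 0.21 (adjusted p = 0.615), which missed the threshold. The Xbp1 probe sets 1420886_a_at and 1420011_s_at gave -0.05 ± 0.21 and 0.05 ± 0.10 in the average. The array does not separate the spliced and unspliced forms in its annotation, so splicing was not measured.

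In the remaining exhaust comparisons no member probe set was called by limma. For DE 2000 against air in saline that was 0 of 21 (0.147% of all tested probe sets called), with 1 member probe set at an unadjusted p below 0.05; with ovalbumin it was 0 of 21 (0.0221% of all), with 4. For DE 500 against air it was 0 of 21 in saline (0.00737% of all), with 1 at an unadjusted p below 0.05, 0 of 21 with ovalbumin (0% of all), with 0, and 0 of 21 in the average (0% of all), with 0. For DE 2000 against DE 500 it was 0 of 21 (0.081% of all), with 4. Both interactions of exhaust and ovalbumin gave 0 of 21 (0% of all), with 1 at DE 2000 and 0 at DE 500. The count for DE 2000 against DE 500 changed with the arrays and the covariate used. Without the 3 uneven arrays both Nupr1 probe sets (0.46 and 0.50) and Xbp1 1420012_at (0.39) were higher at DE 2000. Dnajb9 was lower there (-0.43), and all of these were called, where 10.7% of all tested probe sets were. Dnajb9 was then also higher at DE 500 than in air in saline (0.56, adjusted p = 0.0405 in limma, 9.45% of all called). In that setting DE 500/saline held only replicates 2 and 3. Their 3'/5' ratios (0.33 and 0.10) were below that of every air/saline and DE 2000/saline array. The part of the ratio in these calls was not tested. With the 3'/5' covariate and all arrays both Nupr1 probe sets were called (adjusted p = 0.0111 and 0.0297 in limma). The count for DE 2000 against DE 500 became 1 without DE 2000/OVA replicate 1 or without DE 500/saline replicate 1.

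**Figure D2:**
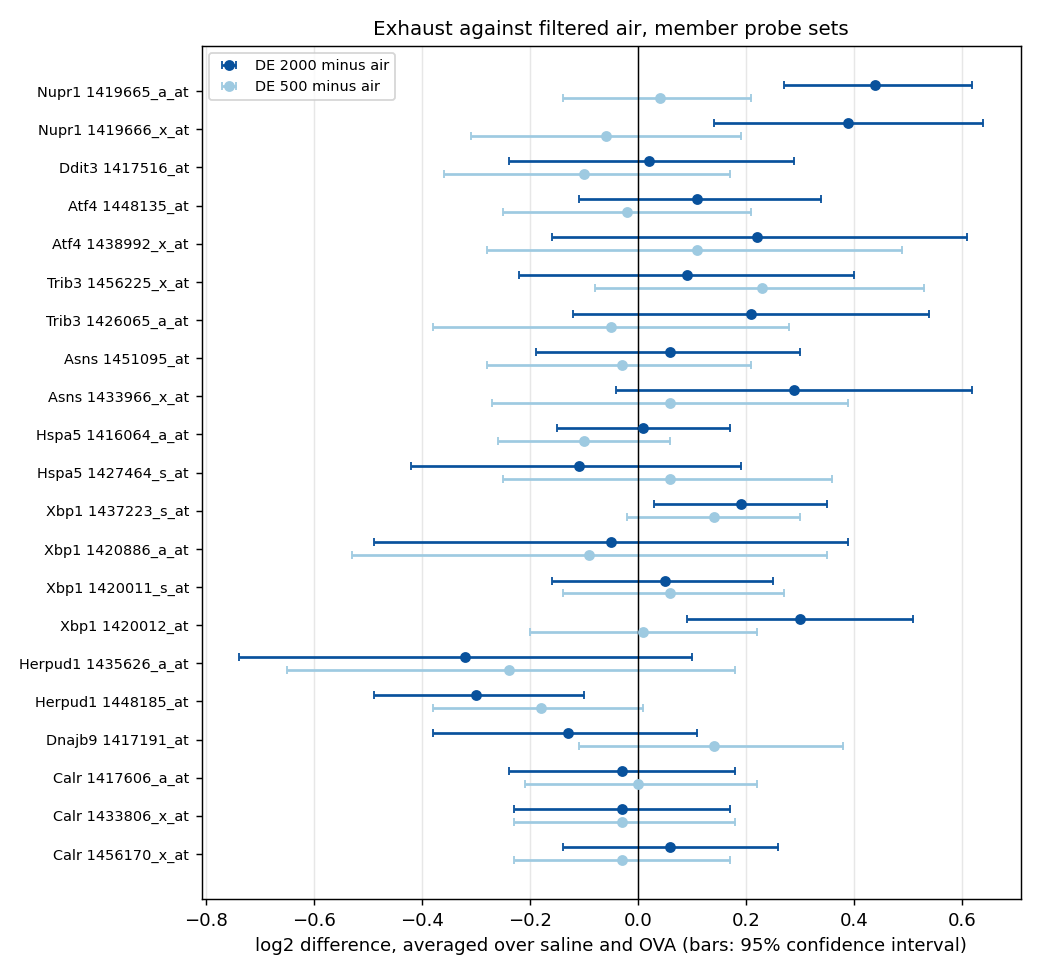
Log2 difference between exhaust and air, as the average of saline and OVA, for the 21 tested member probe sets (dark: DE 2000; light: DE 500); bars are 95% confidence intervals from the fit to 24 arrays. Nupr1 1419665_a_at at DE 2000 (0.44) is the only called value, and the points of Ddit3, Hspa5 and Calr lie near 0.

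The wider pathways were taken as lists. None of their genes was called at DE 2000 or DE 500 against air in the average. Of all tested genes 0.108% were called at DE 2000 and 0% at DE 500. The first list gave 0 of 11 tested genes of eIF2 kinases, subunits of eIF2 and its exchange factor eIF2B, and eIF2 phosphatases. Further ATF4 and CHOP targets gave 0 of 20 and aminoacyl-tRNA synthetases 0 of 17. Sensors and activators of the unfolded protein response gave 0 of 10, and ER chaperones and folding enzymes 0 of 24. Genes of ER-associated degradation gave 0 of 20, and those of ER translocation, glycosylation and vesicle traffic 0 of 35. The median differences of these lists at DE 2000 ran from -0.04 to 0.08, around -0.01 over all genes. Among the ATF4 and CHOP targets the values of smallest p were -0.36 ± 0.15 for Sesn2 and -0.91 ± 0.44 for Ddit4, both stress-induced brakes on growth signalling through mTORC1, 0.33 ± 0.17 for Mthfd2, a mitochondrial folate enzyme, and 0.17 ± 0.09 for Slc3a2, a subunit of amino acid transporters. Among the chaperones Hyou1, an ER partner of BiP, gave 0.29 ± 0.15.

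Ovalbumin was compared with saline at each exposure and as the average of the 3 exposures. In that average 13 of 21 member probe sets were called (61.9%), where 46.3% of all tested probe sets were. Of the 21, 6 were higher (22.7% of all) and 7 lower (23.6% of all) with ovalbumin. The higher were 2 probe sets of Xbp1, both of Herpud1, that of Dnajb9 and the dimmer of Hspa5, and the lower were 2 of Atf4, both of Nupr1, that of Ddit3 and 1 each of Asns and Calr. The 3'/5' ratio differed between the same arms, as given above. With it as a covariate 2 of the 21 were called, Xbp1 1420886_a_at and Atf4 1448135_at, where 14.1% of all tested probe sets were. The B1 repeat control, a measure of unspliced or genomic sequence, also differed between the arms. Its group means of log2 signal ran from 12.88 to 13.1 in saline and from 11.33 to 11.68 with ovalbumin. With the 3'/5' ratio and B1 as covariates 0 of the 21 were called (1.69% of all). Without the 3 uneven arrays and with no covariate, 12 were (41% of all).

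Atf4 fell with ovalbumin, 1.53-fold. Its signals in probe set 1448135_at were 3116, 2661, 3761 and 3186 in air/saline, 4037, 2352, 2772 and 3276 in DE 500/saline and 3137, 2879.8, 3985 and 3482 in DE 2000/saline. They were 2044, 2176, 1530.5 and 2397 in air/OVA, 2133, 2099, 1952 and 1897 in DE 500/OVA and 2420.3, 1959.8, 2364 and 2180.1 in DE 2000/OVA. At each exposure every ovalbumin array lay below every saline array, and over all exposures DE 500/saline replicate 2, the lowest of the saline arrays, lay within the upper part of the ovalbumin range. The difference was -0.61 ± 0.09 (interval -0.80 to -0.43, adjusted p = 1.78e-05 in limma), and -0.42 ± 0.10 with the 3'/5' covariate (adjusted p = 0.0058). With the 3'/5' and B1 covariates together it was -0.61 and not called. Without a covariate the Atf4 difference was -0.65 in air, -0.59 at DE 500 and -0.59 at DE 2000, called at each. With the 3'/5' covariate these Atf4 values were -0.46, -0.35 and -0.46, of which the last was called. Without the 3 uneven arrays the value at DE 500 was -0.34 and not called. The Atf4 probe set 1438992_x_at gave -0.50 ± 0.15 (adjusted p = 0.00964) and 0.02 ± 0.12 with the covariate.

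Ddit3 fell by 0.34 ± 0.10 on the log2 scale with ovalbumin (adjusted p = 0.0106 in limma), and its value with the 3'/5' covariate was -0.14 ± 0.12 (adjusted p = 0.501). Without the 3 uneven arrays the Ddit3 value was -0.25 (adjusted p = 0.0735 in limma), not called. Nupr1 fell in both probe sets, by 0.34 ± 0.07 (1419665_a_at, adjusted p = 0.000512) and 0.37 ± 0.10 (1419666_x_at, adjusted p = 0.00427), with -0.22 and -0.22 under the covariate, neither called. Without the covariate Nupr1 was thus lower with ovalbumin, and it was higher at DE 2000 as the average of both arms. DE 2000/OVA had a mean log2 signal of 10.21 against 10.11 in air/saline. The 3'/5' ratio also differed between these arms, and its part in these values was not tested. The Trib3 differences with ovalbumin were -0.21 ± 0.12 and -0.15 ± 0.13, and -0.05 and -0.16 with the covariate, none called. Asns disagreed between its probe sets: the brighter 1451095_at gave 0.05 ± 0.10 (interval -0.14 to 0.25; 0.11 with the covariate), while 1433966_x_at fell by 0.36 ± 0.13 (adjusted p = 0.029 in limma; up to 0.0602 with single arrays left out, and lost in 6 of 24 such fits), and gave -0.05 ± 0.14 with the 3'/5' covariate (adjusted p = 0.872).

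Xbp1 showed the widest spread among its probe sets. In 1420886_a_at the signals were 3019.6, 3845, 2347 and 3678 in air/saline, 1487, 4532, 4977 and 1781 in DE 500/saline and 2884, 2428, 3289 and 2748 in DE 2000/saline. With ovalbumin they were 5803, 6891, 6445 and 6338 in air, 6886, 6148, 6323 and 6343 at DE 500 and 5639, 8621, 10019 and 4088 at DE 2000. The lowest signals, 1487 and 1781, were on DE 500/saline replicates 1 and 4, the arrays of highest 3'/5' ratio, and the lowest of the ovalbumin arm, 4088, was on DE 2000/OVA replicate 4, the only ovalbumin array of high ratio. The highest of the saline arm, 4532 and 4977, were on DE 500/saline replicates 2 and 3, the saline arrays of lowest ratio.

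The difference with ovalbumin was 1.15 ± 0.17 (2.22-fold, adjusted p = 2.35e-05 in limma) for Xbp1 1420886_a_at and 0.49 ± 0.10 with the 3'/5' covariate (adjusted p = 0.00114). With B1 as a further covariate that value was 0.40 and not called. The brightest Xbp1 probe set, 1437223_s_at, gave 0.15 ± 0.06 (interval 0.02 to 0.28, adjusted p = 0.0518), which missed the threshold, and 0.18 ± 0.08 with the covariate. Xbp1 1420011_s_at rose by 0.31 ± 0.08 (adjusted p = 0.00336), with 0.23 ± 0.10 under the covariate (adjusted p = 0.141), and 1420012_at gave 0.00 within its interval of -0.17 to 0.17, and 0.15 ± 0.10 with the covariate. The probe sets of this 1 gene thus differed in size from none to above 2-fold without the covariate, and from 0.15 to 0.49 with it.

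Herpud1 rose with ovalbumin in both probe sets, by 0.61 ± 0.17 (1435626_a_at, adjusted p = 0.00462 in limma) and 0.27 ± 0.08 (1448185_at, adjusted p = 0.00562); with the 3'/5' covariate the values were -0.02 ± 0.09 and 0.08 ± 0.08. Dnajb9 rose by 0.43 ± 0.10 (1.34-fold, adjusted p = 0.00123), with 0.17 ± 0.10 under the covariate. Hspa5 in its brightest probe set 1416064_a_at gave -0.01 ± 0.06, with a 95% confidence interval from -0.14 to 0.12, and 0.11 ± 0.07 with the covariate, while the dimmer 1427464_s_at rose by 0.41 ± 0.12 (adjusted p = 0.00878) and gave 0.11 ± 0.13 with the covariate. Calr fell in 1417606_a_at by 0.28 ± 0.08 (adjusted p = 0.00978), and gave -0.13 ± 0.08 and -0.09 ± 0.08 in its other probe sets. With the covariate the Calr values were -0.06 ± 0.08 in 1417606_a_at and -0.19 and -0.02 in the others, none called.

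**Figure D3:**
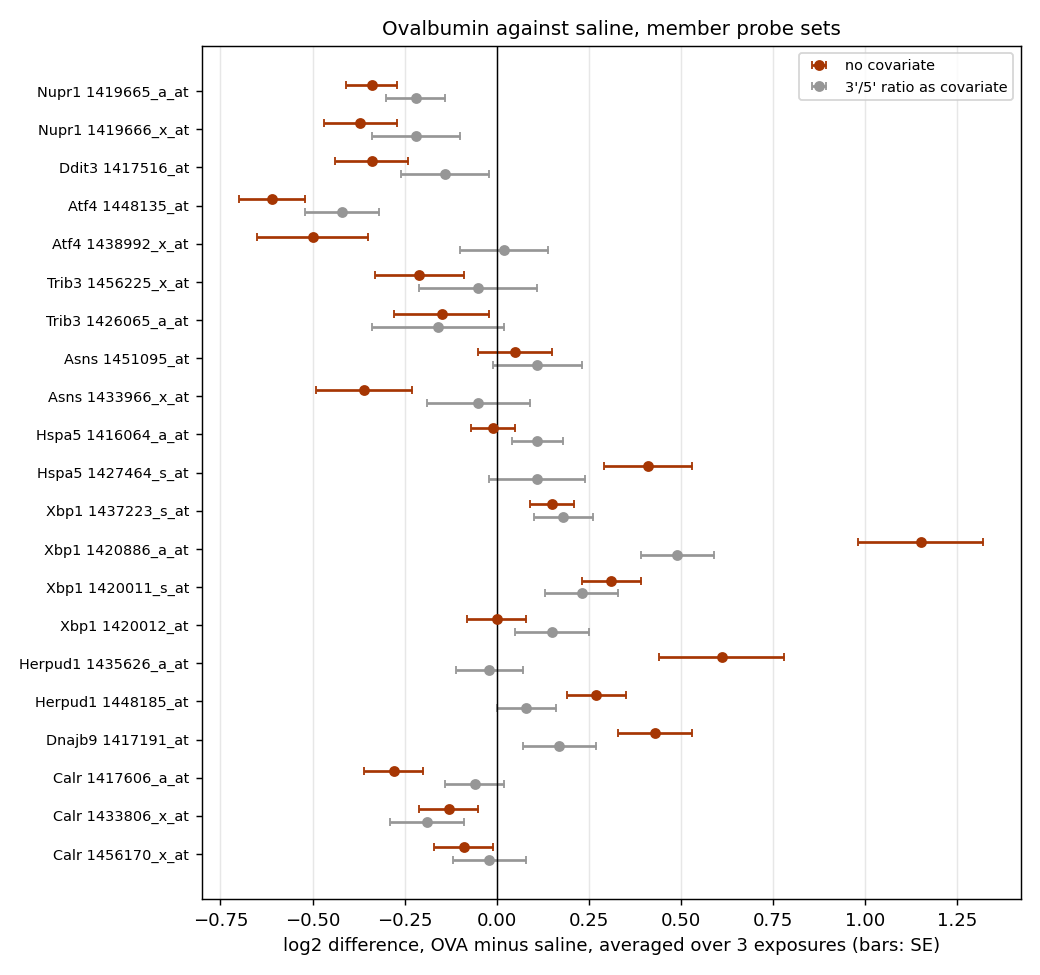
Log2 difference between OVA and saline, averaged over the 3 exposures, for the 21 tested member probe sets, without a covariate (dark orange) and with the array's 3'/5' ratio as covariate (grey); bars are SE. Of 13 called values without the covariate, Xbp1 1420886_a_at and Atf4 1448135_at are called with it, and Herpud1 1435626_a_at moves from 0.61 to -0.02.

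By exposure, the ovalbumin calls were 5 of 21 in air (14.8% of all tested probe sets called), 4 of 21 at DE 500 (12.5% of all) and 2 of 21 at DE 2000 (18.1% of all). Xbp1 1420886_a_at (1.01, 1.21 and 1.24) and Atf4 1448135_at were called at each exposure. In air the others were Dnajb9 (0.50 ± 0.17) and both Nupr1 probe sets (-0.37 ± 0.12 and -0.52 ± 0.17), and at DE 500 they were both Herpud1 probe sets (0.92 ± 0.29 and 0.49 ± 0.13).

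With the 3'/5' covariate the counts were 0 in air (1.77% of all), 0 at DE 500 (1.16% of all) and 3 at DE 2000 (15.7% of all), the last being Xbp1 1420886_a_at (0.79), Xbp1 1420012_at (0.44) and Atf4 1448135_at (-0.46). Without the 3 uneven arrays they were 10 (29.3% of all), 0 (0.692% of all) and 9 (32.5% of all). At DE 500 the values were smaller: Herpud1 1435626_a_at was 0.10 with the covariate and 0.18 without the 3 arrays, Herpud1 1448185_at 0.24 and 0.26, and Xbp1 1420886_a_at 0.35 and 0.43. In air the covariate gave 0.33 for Xbp1 1420886_a_at, 0.24 for Dnajb9 and -0.25 and -0.37 for the Nupr1 probe sets. The counts without a covariate also depended on single arrays. That for air was 0 without air/saline replicate 3 and 1 without air/OVA replicate 1, 3 or 4 or air/saline replicate 1. It was 2 or 3 without air/OVA replicate 2, any DE 500/OVA array, or DE 2000/saline replicate 1 or 3. At DE 500 it was 0 without DE 500/saline replicate 1 or 4 and 2 without DE 500/OVA replicate 1, 3 or 4, and at DE 2000 it was 4 without DE 2000/OVA replicate 4.

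Because the ratio and the ovalbumin arm moved together, the members were set against the ratio within the 12 saline arrays, where no ovalbumin was given. These 21 relations were computed after the data had been seen. Xbp1 1420886_a_at fell as the ratio rose (Pearson r = -0.96, permutation p = 1e-05, the smallest the resamples can give, adjusted over the 21 to 0.00021; Spearman rho = -0.94, permutation p = 2e-05; r = -0.91 without the 2 arrays of ratio farthest from the median). The brightest Xbp1 probe set 1437223_s_at had r = 0.21 (permutation p = 0.51; rho = 0.19, p = 0.557 by permutation).

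Herpud1 1435626_a_at had r = -0.88 (adjusted permutation p = 0.00182; rho = -0.83; -0.69 without the 2 farthest arrays) and its 1448185_at r = -0.69 (adjusted permutation p = 0.0497; rho = -0.64; -0.37 without those arrays, so that the relation rests on them). Atf4 1438992_x_at rose with the ratio (r = 0.91, adjusted permutation p = 0.00178; rho = 0.84; 0.74 without the 2), as did Calr 1417606_a_at (r = 0.80, adjusted permutation p = 0.00719; rho = 0.83; 0.78 without the 2). Nupr1 1419665_a_at had r = 0.29 (permutation p = 0.356; rho = 0.46) and Atf4 1448135_at r = 0.67 (adjusted permutation p = 0.0554; rho = 0.64). By Pearson's r 5 of the 21 relations passed an adjusted permutation p of 0.05, 2 rising and 3 falling with the ratio. By Spearman's rho Herpud1 1448185_at did not pass (adjusted permutation p = 0.0722). Hspa5 1427464_s_at passed by rho (-0.83, adjusted permutation p = 0.00685), with r = -0.64 and -0.87 without the 2 farthest arrays. Dnajb9 had r = -0.66 (-0.85 without those arrays) and Ddit3 r = 0.61 (0.82 without them), neither passing.

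**Figure D4:**
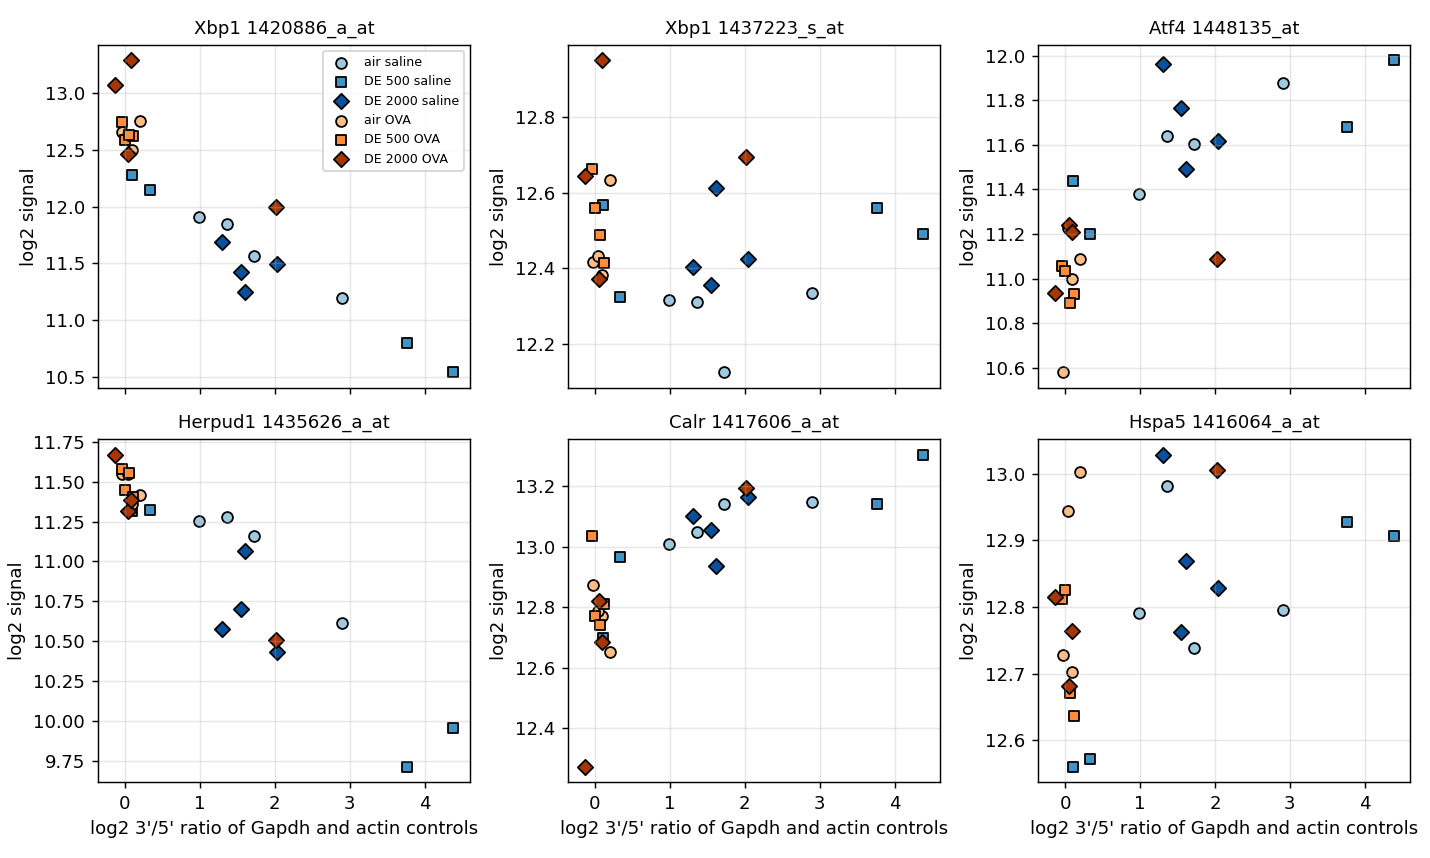
Log2 signal of 6 member probe sets against the log2 3'/5' ratio of the array's Gapdh and actin controls; each point is an array, blue for saline and orange for OVA, with the exposure given by shape. Xbp1 1420886_a_at and Herpud1 1435626_a_at fall along the ratio within the saline arrays (r = -0.96 and -0.88). Xbp1 1437223_s_at (r = 0.21) and Hspa5 1416064_a_at (r = 0.53) do not fall along it.

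The pathway lists with ovalbumin had the following counts, with the calls under the 3'/5' covariate beside them; without it 19.2% of all tested genes were called higher and 24.4% lower, and with it 4.11% and 8.8%. None of 17 tested aminoacyl-tRNA synthetases was higher and 8 were lower, among them Eprs (-0.76 ± 0.11, adjusted p = 1.53e-05 in limma), Aars (-0.76 ± 0.12) and Wars (-0.63 ± 0.08), enzymes that charge tRNAs and that ATF4 is known to induce; 4 were called lower with the covariate, with Eprs at -0.48, Aars at -0.43 and Wars at -0.38. Of 20 further ATF4 and CHOP targets 0 were higher and 4 lower, Sesn2 (-0.48 ± 0.13), Pck2, a mitochondrial enzyme of gluconeogenesis (-0.36 ± 0.10), Shmt2, a serine and glycine enzyme (-0.24 ± 0.08) and Cebpg, a dimer partner of ATF4 (-0.20 ± 0.07), and 2 with the covariate. Of 11 genes of eIF2 kinases, eIF2 and eIF2B subunits and eIF2 phosphatases 3 were higher and 4 lower, and with the covariate 0 and 1. Among the lower was Ppp1r15a (-0.35 ± 0.08, and -0.33 with the covariate). It encodes GADD34, a subunit of a phosphatase that removes the eIF2 phosphate.

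On the ER side, 4 of 24 chaperones and folding enzymes were higher and 5 lower, led by Pdia4, a disulfide isomerase (1.16 ± 0.17, adjusted p = 1.59e-05 in limma; 0.80 with the covariate), and with the covariate 2 and 1. Of 20 genes of ER-associated degradation 4 were higher, among them Sel1l, the adaptor of the HRD1 ligase (0.88 ± 0.16; 0.31 and not called with the covariate), and 3 lower, among them the ATPase Vcp (-0.59 ± 0.10; -0.24 with the covariate). Of 35 genes of ER translocation, glycosylation and vesicle traffic 15 were higher and 4 lower, with Sec62, a translocon subunit, at 0.52 ± 0.07 and Sec24d, a coat protein of ER export, at 0.86 ± 0.14; with the covariate 7 and 1 were called. Of 10 sensors and activators 3 were higher, among them the protease Mbtps1 that cuts ATF6 (0.28 ± 0.07), and 3 lower; with the covariate 0 and 1. Median differences without the covariate ran from -0.23 for the synthetases to 0.21 for the sensors and activators, around -0.03 over all genes.

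Members were finally compared with each other within each arm, as 14 relations over 12 arrays each. None passed after adjustment (smallest adjusted permutation p for Pearson's r = 0.21, and 0.198 for Spearman's rho). The relations of smallest p by Pearson's r were Hspa5 with Dnajb9 in saline (r = -0.68, permutation p = 0.015; rho = -0.53; -0.06 without the 2 farthest arrays), Ddit3 with Atf4 in saline (r = 0.61, permutation p = 0.0346; rho = 0.62; 0.47 without them) and Hspa5 with Calr in saline (r = 0.58, permutation p = 0.0451; rho = 0.36; 0.05 without them). The same pairs with ovalbumin had r = -0.13, -0.31 and 0.16. By Spearman's rho the smallest p were those of Ddit3 with Atf4 in saline (permutation p = 0.0349), Hspa5 with Herpud1 in saline (rho = -0.60, permutation p = 0.0421) and Hspa5 with Xbp1 with ovalbumin (rho = 0.60, permutation p = 0.0424). The genes most like Ddit3 over 24 arrays, by the same measure as for Nupr1, were Ramp3 (r = 0.70), Zfp768, Hsp90aa1 and Msx1 (each 0.69) and Pear1 (0.68), and those most like Hspa5 were Gle1 (0.77), Pde9a (0.74), Arl2bp, Rpl35 and Stard7 (each 0.73). No other member was among them.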

How the data were processed

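RNA of frozen lung was labelled from 2 ug of total RNA and hybridised to 24 Affymetrix arrays, 1 colour, per the labels' protocols. The deposited values are 1 linear intensity per probe set and array, made by the authors with MAS5 per the submitters' processing notes; for MAS5 no version is given in the sources used here. Trimmed by 2% at either end, each array's mean was 500, so the arrays had been scaled. Of 22690 probe sets, 64 controls were set aside; 20380 of the rest name 1 gene by an annotation of the array that can be old, 691 several and 1555 none.

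Here the intensities were taken to log2 with no pseudocount, probe sets above the 40th percentile of mean log2 signal were tested, and a model of 6 group means over the 24 arrays was fitted in R 4.3.3 with limma 3.58.1 (eBayes with an intensity trend after contrasts.fit, two-sided, 18 residual degrees of freedom). P-values were adjusted by Benjamini-Hochberg in each of 13 comparisons. Correlations used 100000 resamples (SciPy 1.17.1). The fit was tested on simulated data with known differences between DE 2000/saline and air/saline. The simulated noise was independent between probe sets and arrays, without the 3'/5' differences of the real arrays. More probe sets were given a difference than the 20 called in the real comparison, so the shares found can differ from those in the real data. At 1.5-fold 40% of the known differences were found, at 2-fold 66%, at 3-fold 92% and at 4-fold 94%. Many small differences were thus missed in this simulation, so a lack of calls there does not show a lack of change. Named genes are all members, and from each list genes with the smallest p. The members and lists were chosen with earlier results of these data known. Replicate numbers were checked for pairing: over 60 pairs residuals correlated 0.03 on average, between -0.43 and 0.59, so they were not used as pairs.

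Alternatives were quantile normalization, median scaling, no filter, a 60th percentile filter, a pseudocount of 50, array weights, a replicate block, no trend, a fit of the compared groups alone, the 3'/5' ratio alone or with B1 as covariates and leaving out each array; leaving out the 3 uneven arrays was added after the data were seen.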

Additional observations from a re-analysis of the deposited data

Results flagged for a closer look

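In 126 groups of 4 arrays (21 probe sets in 6 groups), 4 held an array far from the other 3; chance gives about 5% of groups. Trib3 1426065_a_at in air/OVA replicate 3 was at a log2 signal of 6.81, against 7.18 to 7.24 on the others. Xbp1 1437223_s_at in air/saline replicate 1 was at 12.12, against 12.31 to 12.34. Herpud1 1448185_at in DE 2000/saline replicate 1 was at 10.43, against 10.78 to 10.81. Dnajb9 1417191_at in DE 500/OVA replicate 3 was at 11.01, against 11.22 to 11.25.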

How the results depend on the processing

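Counts of called member probe sets moved by over 1.5 times as follows. DE 2000 against air in the average gave 0 (1 as reported) under median scaling, only the groups compared, no trend and the replicate block, and 0 to 1 with single arrays left out. In saline, DE 2000 gave 1 with array weights, Nupr1, and DE 500 gave 1 without the 3 uneven arrays, a setting chosen after seeing the data. DE 2000 against DE 500 gave 2 with the 3'/5' covariate, 2 with both covariates and 4 without the 3 uneven arrays, and 0 to 1 with single arrays left out. Ovalbumin in air (5) gave 2 with no filter, 8 with only the groups compared, 9 with array weights, 3 with no trend, 3 with the replicate block, 0 with either covariate setting and 10 without the 3 uneven arrays, and 0 to 7 with single arrays left out. At DE 500 (4) it gave 0 with only the groups compared, 0 with either covariate setting and 0 without the 3 uneven arrays, and 0 to 6 with single arrays left out. At DE 2000 (2) it gave 7 with array weights, 0 with both covariates and 9 without the 3 uneven arrays, and 2 to 4 with single arrays left out; the average (13) gave 2 with the 3'/5' covariate, 0 with both, and 12 to 14 with single arrays left out. The cause of these changes was not tested. The replicate block changed Nupr1's adjusted p at DE 2000 to 0.0883.

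Signs turned for Herpud1 1435626_a_at at DE 500 with both covariates (-0.01) and, in the ovalbumin average, for Herpud1 1435626_a_at (-0.02 with the 3'/5' covariate, -0.22 with both), Atf4 1438992_x_at (0.02 and 0.12), Hspa5 1427464_s_at (-0.12 with both) and Calr 1417606_a_at (0.00 with both). Of 248 values not called, 22 changed sign under quantile normalization, 29 under median scaling, 36 with array weights, 30 with the 3'/5' covariate, 45 with both covariates and 35 without the 3 uneven arrays, where 17 became called. Median scaling moved the median of all genes by 0.11 for DE 2000 against air with ovalbumin, -0.12 for ovalbumin in air and 0.13 for the interaction at DE 2000. Array weights stopped before full convergence.

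Correlations turned under quantile normalization for Hspa5 with Herpud1 (0.21 in saline, 0.26 with OVA), Hspa5 with Calr (-0.03 in saline), Ddit3 with Trib3 (0.08 in saline), Hspa5 with Dnajb9 (0.22 with OVA) and Hspa5 with Xbp1 (-0.04 with OVA). They turned under median scaling for Ddit3 with Trib3 (0.09 in saline, 0.02 with OVA), Hspa5 with Dnajb9 (0.28 with OVA) and Ddit3 with Atf4 (0.12 with OVA), and passed the threshold there for Hspa5 with Calr (0.80 in saline), Ddit3 with Atf4 (0.75 in saline) and Hspa5 with Xbp1 (0.72 with OVA). With single arrays left out they ran -0.50 to 0.25 for Hspa5 with Herpud1 in OVA, -0.26 to 0.00 for Hspa5 with Dnajb9 in OVA, -0.21 to 0.30 for Hspa5 with Calr in OVA, 0.32 to 0.67 for Hspa5 with Xbp1 in OVA, -0.45 to -0.17 for Ddit3 with Atf4 in OVA, -0.53 to -0.19 for Ddit3 with Trib3 in OVA, -0.09 to 0.22 for Ddit3 with Asns in OVA, and -0.69 to -0.43 for Hspa5 with Herpud1 in saline, -0.84 to -0.55 for Hspa5 with Dnajb9 in saline, 0.31 to 0.64 for Hspa5 with Calr in saline, 0.02 to 0.42 for Hspa5 with Xbp1 in saline, 0.54 to 0.76 for Ddit3 with Atf4 in saline, -0.35 to 0.06 for Ddit3 with Trib3 in saline, 0.28 to 0.63 for Ddit3 with Asns in saline.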
